A study of Rattus norvegicus with 16 samples.

Results

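The 8 genes described here encode enzymes that desaturate or elongate fatty acids: Scd1, Fads1, Fads2, Fads3, Elovl1, Elovl5, Elovl6 and Elovl7. They are 8 of the 17147 genes in a table of fragments per gene from rat supraspinatus, a muscle of the rotator cuff. Scd1 was chosen by its measured fold changes, which were among the largest in earlier results of these data, both in the 10-day and 30-day groups against unoperated muscle and between the 30-day and 60-day groups. The other 7 were selected as members of the same enzyme families with those results known. The members' values are therefore given as a description, without p-values. All 16 libraries were from Sprague Dawley rats, 4 in each of 4 groups. The 0-day group was unoperated. The groups at 10, 30 and 60 days had the supraspinatus torn through its full thickness on both sides and also underwent suprascapular neurectomy, in which the nerve to the muscle is cut out in part. As both were done, the effects of the tear and of the lost nerve supply cannot be told apart. There were no sham-operated or later unoperated animals among the samples, and the labels give neither age nor sex. Each library title carries its own number, but the labels do not say which libraries came from separate rats, so the error given is the spread between these samples. Libraries are numbered 1 to 4 within a group only as names.

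Stearoyl-CoA desaturases place the first double bond in saturated fatty acyl-CoA and so make oleate and palmitoleate, the monounsaturated fatty acids of membranes and triglycerides. FADS1 and FADS2 add double bonds to dietary polyunsaturated fatty acids on the way to arachidonic acid and the long omega fatty acids, and FADS3 acts on sphingoid bases. ELOVL enzymes carry out the condensing step that lengthens an acyl chain in the endoplasmic reticulum, and each prefers chains of a certain length and saturation. In muscle, these fatty acids go into the membranes of fibres and into stored lipid, and fat accumulates in torn rotator cuff muscles.

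Library totals ran from 17.2 to 39.9 M fragments, and the 4 libraries at 60 days all lay below the other 12, with a mean of 19.5 ± 2.56 M (SD, n = 4). Levels below are CPM, counts per 1 M fragments after TMM scaling, which corrects for differences in RNA composition. They are not divided by gene length, so levels were not compared between genes. A change is given as a log2 fold change ± its standard error (SE) from an edgeR quasi-likelihood model of all libraries, and a gene was called at a Benjamini-Hochberg adjusted p under 0.05. Scaling by library totals alone raised the median log2 fold change over all 11658 tested genes by 0.66, 0.49 and 0.41 at 10, 30 and 60 days against 0 days, and upper-quartile scaling raised it by 0.12 at 30 days and 0.14 at 60 days. Every change is therefore relative to the TMM scale. The percentage of called genes that were higher was 53.1%, 52.2% and 50.7% at the 3 times with TMM and 87.4%, 84.1% and 82.7% with library totals, while upper-quartile scaling gave 63.6% in the 60-day comparison. Muscle fibre markers were abundant in every library, with summed levels of 9 genes from 62052 to 245344 CPM.

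The rat genome holds several stearoyl-CoA desaturase genes side by side, and the symbols in the table need care. In RefSeq (assembly GRCr8), Scd1 is listed as an older symbol of the gene now named Scd, and Scd as an older symbol of the gene now named Scd2. The table's Scd1 and Scd were matched to RefSeq through these older symbols alone, and the match was not checked by coordinates. The names of the table are kept below, and the promoter windows rest on this match. The order along chromosome 1 is Scd3, Scd2, Scd4 and Scd in current symbols, with 0 other protein-coding genes between them. Scd2, Scd3 and Scd4 are not symbols of the table. How fragments that match more than 1 of these similar genes were shared out is not given in the sources used here, so part of the fragments of Scd1 and Scd may be exchanged between them. The 250 bases before the start of each gene are shown because both genes were higher after injury, by very different factors. They lie at chr1:253231732-253231981 on the minus strand for Scd1 and at chr1:253118127-253118376 on the plus strand for Scd, in RefSeq coordinates of GRCr8, and are written 5′ to 3′ with capitals marking CCAAT on either strand.
Scd1: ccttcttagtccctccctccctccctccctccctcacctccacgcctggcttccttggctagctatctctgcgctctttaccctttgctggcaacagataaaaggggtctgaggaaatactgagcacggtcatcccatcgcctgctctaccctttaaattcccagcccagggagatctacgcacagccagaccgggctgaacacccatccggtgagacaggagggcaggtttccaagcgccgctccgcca
Scd: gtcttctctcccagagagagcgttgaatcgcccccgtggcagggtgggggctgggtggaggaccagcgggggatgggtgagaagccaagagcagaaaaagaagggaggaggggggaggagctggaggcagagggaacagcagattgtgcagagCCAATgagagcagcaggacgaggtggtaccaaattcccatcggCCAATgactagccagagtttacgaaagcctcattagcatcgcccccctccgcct
The window of Scd held 2 matches to CCAAT and that of Scd1 held 0, where 34.3% of 27457 rat promoter windows of this length held at least 1 on either strand. The other motifs searched on both strands were GGGCGG (present in 32.4% of the windows), TATAAA (13.1%), TCACNCCAC (0.976%) and CANNTG (65.2%). Neither gene held a match to any of these 4. Promoter entries were found for 7 of the 8 members. Fads1 held 1 CCAAT and 1 GGGCGG, Fads2 held 1 GGGCGG, and Fads3 held 2 CCAAT and 3 GGGCGG. Elovl5 held 2 CCAAT and 1 CANNTG, Elovl7 held 1 TATAAA and 2 CANNTG, and Elovl1 held none of the 5 motifs. A match is a description of letters and not a measured site, and other spellings of such sites were not searched.

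Scd1 was low in unoperated muscle, more than 100 times higher at 10 and 30 days, and again much lower at 60 days. The 4 libraries at 0 days held 6.91, 4.40, 6.51 and 4.07 CPM, from 85 to 146 fragments each. At 10 days the levels were 890, 1026, 771 and 975 CPM, and at 30 days they were 1876, 957, 872 and 1194 CPM. At 60 days they were 69.7, 45.8, 25.2 and 51.2 CPM, so that every library at 60 days lay above every library at 0 days and below every library at 10 and 30 days. The group means were 5.47 ± 1.45, 916 ± 111, 1225 ± 455 and 48.0 ± 18.3 CPM in order of time (SD, n = 4 each). The log2 fold change against 0 days was 7.39 ± 0.36 at 10 days, a ratio of 168, and 7.81 ± 0.37 at 30 days, a ratio of 225. At 60 days it was 3.14 ± 0.31, a ratio of 8.83. From 30 to 60 days Scd1 fell by 4.67 ± 0.31 on the log2 scale, to a level 25.5 times lower. The difference between 30 and 10 days was 0.42 ± 0.27, their libraries overlapped, and library 1 at 30 days was well above the other 3 of its group. Scaling by library totals gave log2 fold changes of 8.05, 8.33 and 3.55 against 0 days.

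**Figure D1:**
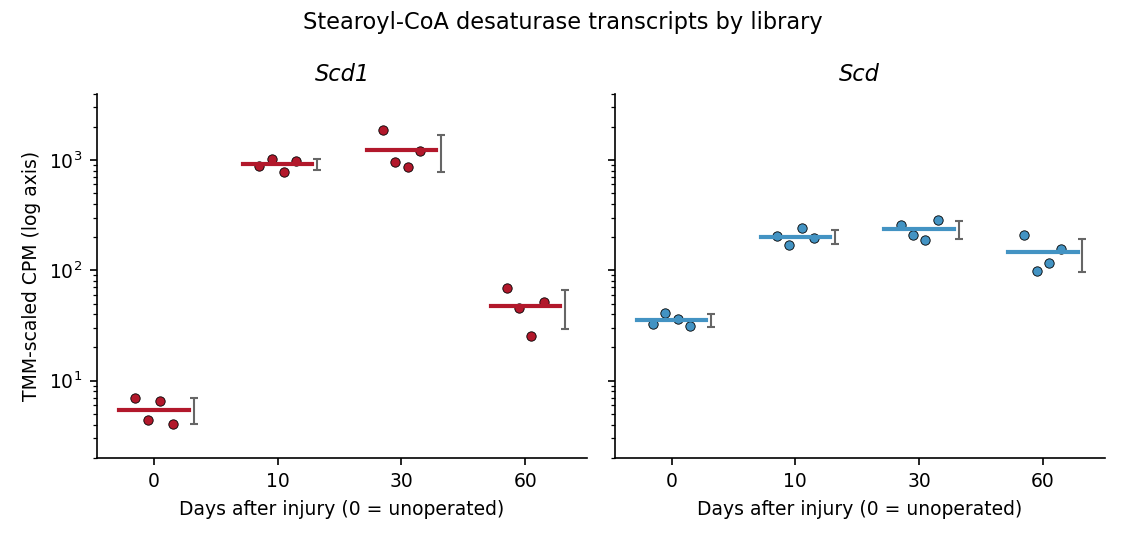
Levels of Scd1 and Scd (TMM-scaled CPM, log axis) in each of the 16 libraries by days after injury, with horizontal lines at the group means and error bars of 1 SD. Scd1 moved from 4.07 to 6.91 CPM at 0 days to 771 to 1876 CPM at 10 and 30 days and back to 25.2 to 69.7 CPM at 60 days, while Scd was still at 99.4 to 208 CPM at 60 days.

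Scd, the neighbouring desaturase and no member of the 8, also rose but over a smaller range and with less of a return. It had 35.4 ± 4.49 CPM in the unoperated group, 202 ± 30.7 in the 10-day group, 236 ± 45.5 in the 30-day group and 145 ± 48.2 in the 60-day group. Against unoperated muscle its log2 fold changes were 2.52 ± 0.21 (edgeR adjusted p = 5.22e-08), 2.74 ± 0.21 (3.25e-08) and 2.04 ± 0.21 (9.46e-07). Scd and the listed genes below were chosen with earlier results of these data known, so their adjusted p-values only describe the fit. The lowest library after injury, library 2 at 60 days with 99.4 CPM, was above the highest unoperated one at 41.4 CPM. From 30 to 60 days Scd fell by 0.70 ± 0.20 (edgeR adjusted p = 0.0187). The ratio of Scd1 fragments to Scd fragments within a library, which does not depend on depth or scaling, was 0.157 ± 0.0480, 4.66 ± 1.22, 5.15 ± 1.42 and 0.335 ± 0.0999 in order of time. Its lowest value at 10 and 30 days was 3.18, and its highest at 0 and 60 days was 0.460. The 2 desaturases therefore did not move by a common factor.

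The libraries with high Scd1 also differed in the genes of other cell types, since bulk RNA mixes all cells of the muscle. Fewer cells of a type and less RNA per cell cannot be told apart in such data. The summed level of 8 adipocyte markers on the TMM scale was 107 to 178 CPM at 10 days and 166 to 231 CPM at 30 days. Both ranges lay below the 245 to 295 CPM of unoperated muscle. The fall of the sum was carried by Fabp4 and Lipe, the 2 markers called lower, with means of 181, 83.8 and 124 CPM for Fabp4 and 49.4, 20.4 and 23.4 CPM for Lipe at 0, 10 and 30 days. The other 6 were not called at 10 or 30 days on the TMM scale, and Adipoq had 11.3, 8.15 and 12.4 CPM. Its log2 fold change at 10 days was −0.48 with TMM and 0.18 with library totals, called with neither. With library totals, the log2 fold change of Fabp4 was −0.45 at 10 days and −0.056 at 30 days, the latter not called. That of Lipe was −0.62 and −0.60. At 60 days the summed level of the adipocyte markers was 277 to 512 CPM. The summed level of 8 macrophage markers was 17.7 to 32.2 CPM in the unoperated group, 59.2 to 81.0 in the 10-day group, 85.3 to 107 in the 30-day group and 66.0 to 122 in the 60-day group. The summed muscle fibre markers were 221289 to 245344 CPM in the unoperated group, 62052 to 67332 in the 10-day group, 103577 to 146807 in the 30-day group and 129259 to 152747 in the 60-day group. In none of the 4 groups was a marker of any of the 6 cell type lists at 0 in all libraries. The macrophage and muscle fibre sums of the groups at 10, 30 and 60 days all lay outside the range at 0 days. The part of adipocytes, macrophages or muscle fibres in the level of Scd1 was not tested.

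The 3 FADS genes also lie side by side in the genome, in the order Fads3, Fads2 and Fads1 with 0 protein-coding genes between them in GRCr8, and they followed different courses. Fads1, which acts late in the making of arachidonic acid, had 8.15, 10.9, 9.41 and 8.33 CPM at 0 days and 10.6, 10.2, 11.0 and 11.6 at 10 days. It had 17.2, 13.9, 13.7 and 15.2 CPM at 30 days and 13.2, 13.0, 14.6 and 21.6 at 60 days. On the TMM scale all libraries at 30 and 60 days were above all libraries at 0 and 10 days, and library 4 at 60 days was the highest, whereas with library totals the 10-day libraries overlapped those at 30 and 60 days. The log2 fold change was 0.70 ± 0.15 at 30 days and 0.76 ± 0.15 at 60 days, both called, against 0.23 ± 0.15 at 10 days, which was not, though with library totals the 10-day value was 0.89 and was called. Fads1 was also called higher at 30 than at 10 days, by 0.47 ± 0.15, and at 60 than at 10 days, by 0.53 ± 0.15. Both of these calls were lost with library totals, at 0.31 and 0.28.

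Fads2, which makes the first desaturation of the polyunsaturated pathway, moved in the same direction as Fads1 with a wider spread. It had 2.59, 5.21, 4.19 and 2.54 CPM in the unoperated group, 4.00, 2.66, 4.38 and 3.84 in the 10-day group, 6.06, 5.93, 5.24 and 5.35 in the 30-day group and 5.81, 4.71, 4.44 and 8.40 in the 60-day group. The libraries at 30 days were all above those at 0 days, whereas those at 60 days overlapped them on the TMM scale but not with library totals. The log2 fold changes against 0 days were 0.02 ± 0.24, 0.62 ± 0.24 and 0.68 ± 0.24, the latter 2 called. Library totals gave 0.68 at 10 days, which was called. The call at 30 days was lost without library 1 or 4 at 0 days or library 1 or 2 at 30 days, with log2 fold changes from 0.49 to 0.60. The call at 60 days was lost without library 1 or 4 at 0 days or library 4 at 60 days, with values from 0.47 to 0.57. After the group means were taken out, the log2 levels of Fads1 and Fads2 over the 16 libraries had a Pearson r of 0.76 and a Spearman rho of 0.72. Without the 2 libraries farthest from the median of Fads1, r was 0.53 and rho was 0.59 over 14. The points share library depth and scaling.

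Fads3, the sphingoid base desaturase, was highest at 10 days and lowest at 60 days. Its levels were 7.65, 7.37, 7.85 and 5.17 CPM in the unoperated group, 11.3, 17.5, 13.2 and 13.9 in the 10-day group, 9.67, 8.43, 7.56 and 9.21 in the 30-day group and 5.58, 5.44, 4.62 and 6.75 in the 60-day group. The 10-day libraries were above all 12 others, and the 60-day libraries were below those at 10 and 30 days. The log2 fold change at 10 days against 0 days was 1.00 ± 0.16 and was called. At 30 days it was 0.31 ± 0.16 and at 60 days −0.32 ± 0.16, neither called, and with library totals the values were 0.81, called, and 0.093, opposite in sign. Between the later times Fads3 fell by 0.68 ± 0.15 from 10 to 30 days and by 0.63 ± 0.16 from 30 to 60 days. The ratio of Fads3 fragments to the sum of Fads1 and Fads2 fragments, free of depth and scaling, was 0.555 ± 0.117, 0.975 ± 0.261, 0.422 ± 0.0207 and 0.267 ± 0.0397 in order of time. The share of Fads3 among the 3 neighbours was highest at 10 days and lowest at 60 days.

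**Figure D2:**
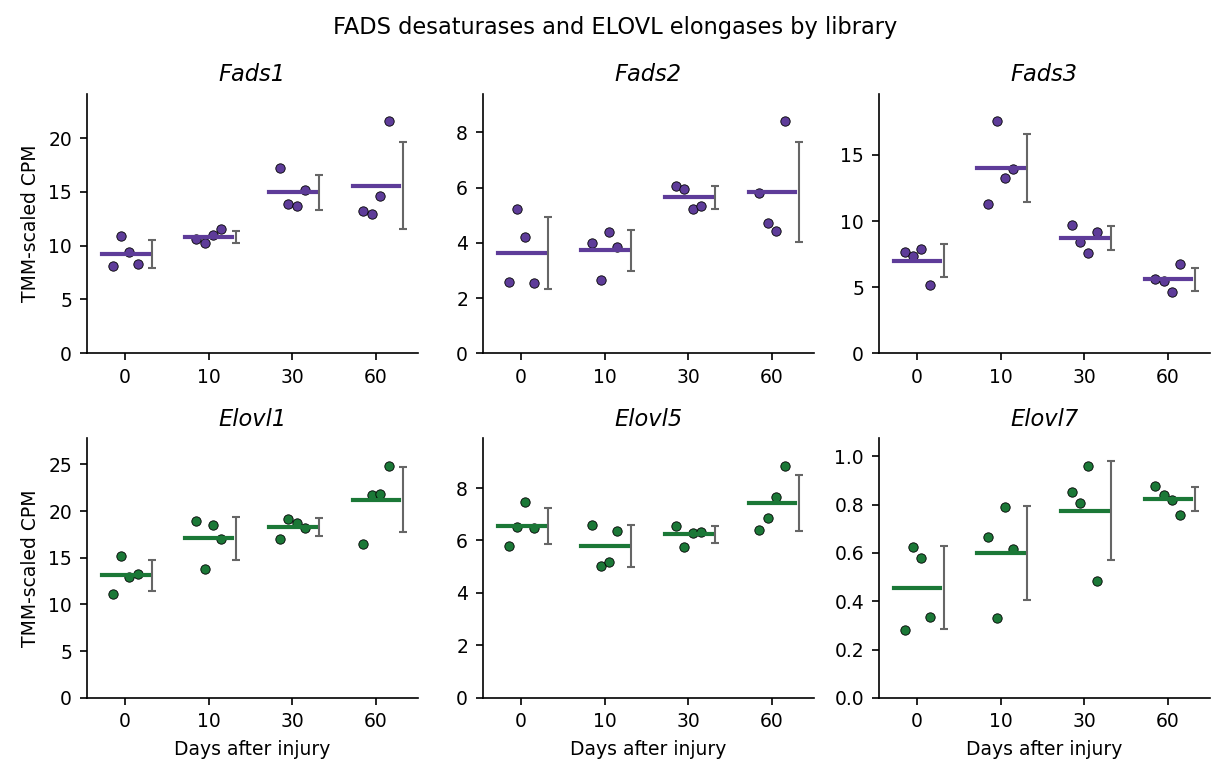
Levels of the 3 FADS genes and of Elovl1, Elovl5 and Elovl7 (TMM-scaled CPM) in each library by days after injury, with horizontal lines at the group means and error bars of 1 SD. The vertical axes differ. Fads3 peaked at 10 days with 11.3 to 17.5 CPM, whereas Fads1 was highest at 30 and 60 days with 13.0 to 21.6 CPM.

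Among the elongases, Elovl1, which makes very long saturated and monounsaturated chains used in sphingolipids, was higher at every time after injury. It had 11.1, 15.1, 13.0 and 13.3 CPM in the unoperated group, 18.9, 13.8, 18.5 and 17.0 in the 10-day group, 17.0, 19.2, 18.8 and 18.2 in the 30-day group and 16.5, 21.8, 21.9 and 24.8 in the 60-day group. The groups at 30 and 60 days did not overlap with the group at 0 days, while library 2 at 10 days lay within its range on the TMM scale and above it with library totals. The log2 fold changes against 0 days were 0.38 ± 0.13, 0.48 ± 0.13 and 0.69 ± 0.13, all called. The call at 10 days was lost without library 1 at 0 days or library 1 at 10 days, with values of 0.31 and 0.32.

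Elovl5, the elongase of polyunsaturated chains, stayed within a narrow range, from 5.03 to 8.84 CPM over all 16 libraries. Its log2 fold changes against 0 days were −0.18 ± 0.13, −0.08 ± 0.13 and 0.18 ± 0.13, none of them called on the TMM scale. With library totals they were 0.48, 0.42 and 0.59, all called, so the direction at 10 and 30 days turned with the scaling. At 60 against 10 days Elovl5 was called higher, by 0.36 ± 0.13, with overlapping libraries. That call was lost without library 2 or 3 at 10 days or library 4 at 60 days, with values from 0.28 to 0.31, and with library totals, at 0.12.

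Elovl7, an elongase of long saturated chains, was close to the limit of what the depth could measure, with 5 to 34 fragments per library. Its means were 0.455 ± 0.172, 0.600 ± 0.196, 0.775 ± 0.205 and 0.823 ± 0.0507 CPM in order of time. The log2 fold change at 60 days was 0.81 ± 0.33 and was called with no overlap between the groups. Leaving out any of 8 libraries ended that call: libraries 1 and 4 at 0 days, library 4 at 10 days, library 2 at 30 days and all 4 in turn at 60 days, with values from 0.68 to 0.87. Elovl6, which lengthens palmitate to stearate, the substrate of stearoyl-CoA desaturase, had 6 fragments in all, with at most 1 in any library and none in 10 of the 16. It did not pass the filter on low counts and was not tested. Taking 3 counts as the limit, a count of 0 would allow up to 0.175 CPM of the library total in the smallest library. In the largest library, which held 1 fragment, 3 counts equal 0.0752 CPM. These limits cover counting error only.

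**Figure D3:**
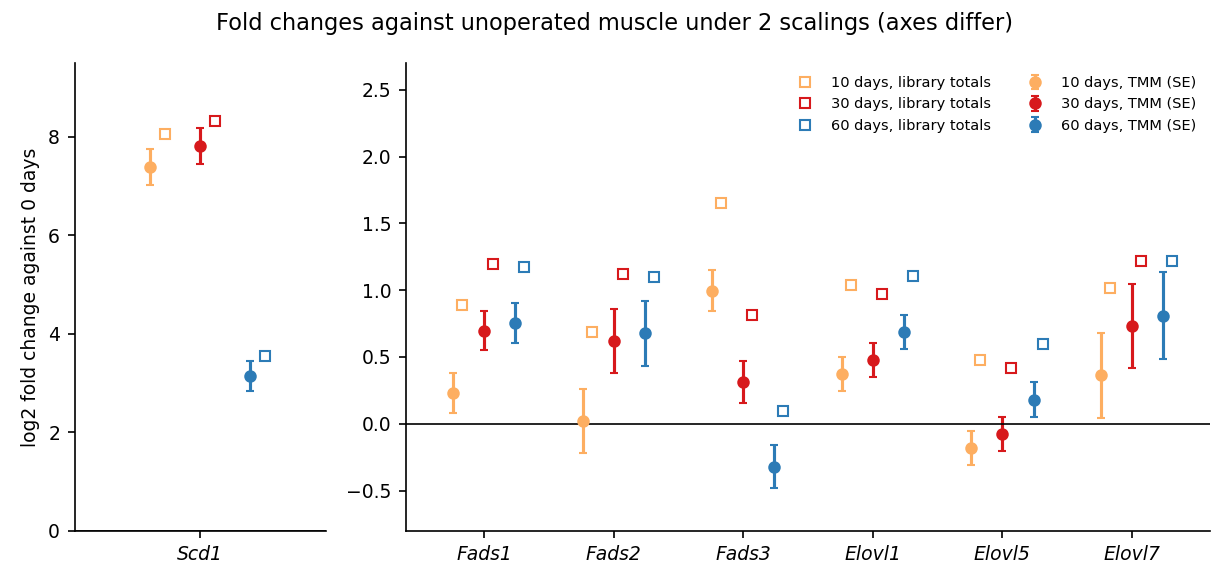
Log2 fold changes against 0 days of the 7 tested members at 10, 30 and 60 days, as filled circles with bars of 1 SE under TMM scaling and open squares under library totals. The axis of Scd1 differs from that of the others. On the TMM scale Scd1 stands at 7.39, 7.81 and 3.14, and the other members lie between −0.32 and 1.00.

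Of the 8 members, 7 passed the filter on low counts. At 10 days against 0 days, 3 were called higher (Scd1, Fads3 and Elovl1), where 33.3% of all tested genes were called higher and 29.4% lower. At 30 days 4 were called higher (Scd1, Fads1, Fads2 and Elovl1), where the background was 33.7% higher and 30.9% lower. At 60 days 5 were called higher, the same 4 and Elovl7, with 29.9% of all genes higher and 29.1% lower. From 10 to 30 days 2 were called higher and 1 lower, with 23.0% and 24.3% of all genes. From 30 to 60 days Scd1 and Fads3 were called lower, with 12.4% of all genes called lower and 10.3% higher. From 10 to 60 days 4 were called higher and 2 lower, with 29.1% and 31.9% of all genes. The median log2 fold changes of the 7 were 0.36, 0.62 and 0.69 at 10, 30 and 60 days against 0 days, beside 0.06, 0.05 and 0.04 over all tested genes. Since results of these data chose the genes, nothing is read from these counts and medians. On the TMM scale, Scd1 alone moved by more than 1.00 in any comparison with 0 days, but Fads3 at 10 days was just below this at 0.997 ± 0.157. With library totals other members moved by more than 1.00 too.

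The genes whose log2 levels followed that of Scd1 most closely over the 16 libraries, out of 8471 with a mean of at least 5 CPM, were Sec1, Dclk1, Chrng, Slc51a and LOC100912292, each with a Pearson r of 0.99. Chrng, the fetal gamma subunit of the muscle acetylcholine receptor, had 0.931 ± 0.0318 CPM in the unoperated group, 129 ± 21.9 in the 10-day group, 179 ± 141 in the 30-day group and 5.33 ± 2.04 in the 60-day group. Dclk1, a doublecortin-like kinase, had 5.23 ± 0.496, 475 ± 153, 690 ± 373 and 26.2 ± 7.18 CPM. Slc51a, a subunit of an organic solute transporter, had 0.987 ± 0.416, 80.3 ± 26.3, 90.5 ± 16.1 and 4.38 ± 3.18 CPM. Sec1 had 1.10 ± 0.479, 28.4 ± 5.11, 32.4 ± 7.66 and 3.38 ± 0.804 CPM, and LOC100912292 had 2.96 ± 0.340, 23.4 ± 2.97, 31.6 ± 6.17 and 9.18 ± 2.08 CPM. All 5 were high at 10 and 30 days and low at 0 and 60 days, and the correlations follow this division into groups. With Spearman's rho in place of Pearson's r, 1 of the 5 stayed among the first 5, and with a minimum mean of 1 CPM 4 of the 5 did.

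Of the other desaturase and elongase genes listed, 7 of 10 were in the table and 4 could be tested. Degs2, Elovl2 and Elovl4 were below the filter. Of the 4, 1 was called higher and 2 lower at 10 days, and 1 in each direction at 30 and at 60 days, with median log2 fold changes of −0.35, −0.11 and −0.32. Library totals turned all 3 medians positive, to 0.31, 0.39 and 0.088. The called increase was Scd at every time. Fads6, a desaturase-like gene, fell from 59.6 ± 1.34 CPM in unoperated muscle to 41.5 ± 5.74, 28.8 ± 6.003 and 16.2 ± 3.99 CPM. Its log2 fold change was −1.05 ± 0.16 at 30 days (edgeR adjusted p = 2.51e-05) and −1.87 ± 0.16 at 60 days (1.50e-07), while that at 10 days, −0.52 ± 0.15 (0.00753), became 0.14 with library totals. Degs1, the dihydroceramide desaturase, fell by 0.22 ± 0.07 at 10 days (edgeR adjusted p = 0.0168), but was at 0.44 with library totals, and the call was lost without library 2 at 0 days, at −0.19.

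The elongation cycle needs a reductase, a dehydratase and an enoyl reductase after the ELOVL step, and the desaturases need electrons from cytochrome b5 and its reductase. Of 9 tested genes for these steps, 3 were called higher and 1 lower at 10 days, 4 and 1 at 30 days, and 3 and 3 at 60 days, with medians of −0.07, 0.22 and 0.14. Cyb5a, the microsomal cytochrome b5, was called higher at 10 and 30 days but not at 60 days, with log2 fold changes of 1.27 ± 0.14, 0.87 ± 0.14 and 0.14 ± 0.14 in order of time (edgeR adjusted p = 1.21e-06, 6.99e-05 and 0.433). Cyb5r3, its reductase, rose by 0.31 ± 0.07 (edgeR adjusted p = 0.00111), 0.68 ± 0.07 (4.55e-07) and 0.90 ± 0.07 (4.47e-08) at the same times. At 60 days Tecr, the enoyl reductase, fell by 0.69 ± 0.11 (edgeR adjusted p = 6.42e-05), and Ptpla, a dehydratase now named Hacd1, fell by 0.79 ± 0.15 (0.000388). The Ptpla call was lost with library totals, at −0.37.

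**Figure D4:**
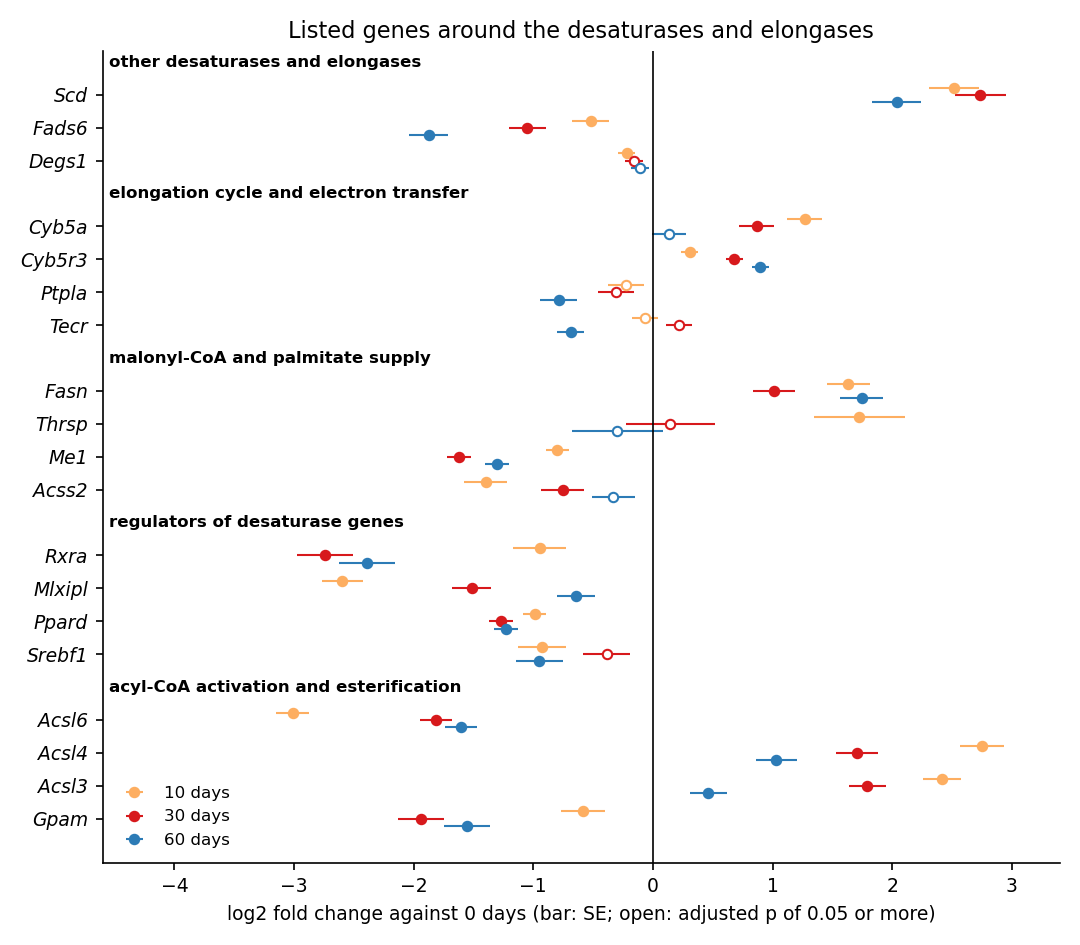
Log2 fold changes against 0 days (TMM scale) at 10, 30 and 60 days of the listed genes around the desaturases with the largest called changes, with bars of 1 SE and open circles where the gene was not called. Fasn and Acsl4 lie above 0 at all 3 times, and Me1, Rxra, Ppard and Acsl6 lie below 0.

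Genes that supply malonyl-CoA and palmitate, the precursors of the chains that Scd1 desaturates, were called in both directions, at shares near those of all genes. Of 9 tested, 3 were called higher and 3 lower at 10 days and again at 30 days, and 3 and 2 at 60 days, with medians of 0.02, 0.24 and −0.11. Over all tested genes, 33.3% were called higher and 29.4% lower at 10 days, 33.7% and 30.9% at 30 days, and 29.9% and 29.1% at 60 days, and these shares are the background for every list. Fasn, the fatty acid synthase, rose by 1.63 ± 0.18, 1.01 ± 0.18 and 1.75 ± 0.18 in order of time (edgeR adjusted p = 6.56e-07, 0.000116 and 7.33e-07), so that it remained high at 60 days when Scd1 was far lower. Thrsp, a regulator of lipogenesis, rose at 10 days by 1.73 ± 0.38 (edgeR adjusted p = 0.000913), with 0.15 ± 0.37 and −0.30 ± 0.38 at 30 and 60 days. Me1, the malic enzyme that makes NADPH, fell by 0.80 ± 0.10 (edgeR adjusted p = 1.95e-06), 1.62 ± 0.10 (1.52e-09) and 1.30 ± 0.10 (2.73e-08). Its call at 10 days was lost with library totals, at −0.14. Acss2, an acetyl-CoA synthetase, fell by 1.40 ± 0.18 at 10 days (edgeR adjusted p = 5.68e-06) and 0.75 ± 0.18 at 30 days (0.00155), the latter lost with library totals at −0.27.

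Transcription factors and sterol sensors that control these genes in textbook lipogenesis were mostly lower or not called. Of 15 tested, 4 were called higher and 6 lower at 10 days, 9 were called lower at 30 days and 9, not all the same genes, at 60 days, with the other 6 not called each time. The medians were −0.07, −0.39 and −0.64, and library totals gave 0.59, 0.093 and −0.24. Srebf1, which encodes the precursor of a factor that activates Scd1 in liver and fat, fell by 0.93 ± 0.20 at 10 days (edgeR adjusted p = 0.000689) and by 0.95 ± 0.20 at 60 days (0.000734). It was at −0.39 ± 0.20 at 30 days (edgeR adjusted p = 0.0931), and with library totals it was at −0.27 at 10 days, not called, and 0.093 at 30 days. Mlxipl, the carbohydrate-responsive factor ChREBP, fell by 2.60 ± 0.17 at 10 days (edgeR adjusted p = 3.95e-09) and 1.51 ± 0.16 at 30 days (9.80e-07). At 60 days it was at −0.64 ± 0.16 (0.00284 by edgeR), a call lost with library totals at −0.24. Rxra, the partner of several nuclear receptors, fell by 2.74 ± 0.24 at 30 days (edgeR adjusted p = 1.11e-07) and 2.39 ± 0.23 at 60 days (7.04e-07). Its value at 10 days, −0.95 ± 0.22 (edgeR adjusted p = 0.00145), was not called with library totals, at −0.29. Ppard, a fatty acid receptor, fell by 0.99 ± 0.10, 1.27 ± 0.10 and 1.23 ± 0.10 (edgeR adjusted p = 2.47e-07, 2.33e-08 and 7.10e-08). These are RNA levels, and neither processing nor activity of the factors was measured.

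Genes that activate fatty acids to acyl-CoA or esterify them were called in both directions, with 3 higher and 6 lower of 10 tested at 10 days and 2 higher and 6 lower at 30 and at 60 days. Their medians were −0.42, −0.48 and −0.50, and with library totals 0.24, 0.0080 and −0.095. Within the acyl-CoA synthetases the direction was split. Acsl4, which prefers arachidonic acid, rose by 2.75 ± 0.18, 1.70 ± 0.17 and 1.03 ± 0.17 in order of time (edgeR adjusted p = 3.73e-09, 5.40e-07 and 0.000110). Acsl3, found on forming lipid droplets, rose by 2.42 ± 0.16 (edgeR adjusted p = 3.37e-09), 1.79 ± 0.16 (8.23e-08) and 0.46 ± 0.15 (0.0170), and the last of these was lost without library 1 at 60 days, at 0.36. Acsl6 fell by 3.01 ± 0.14, 1.81 ± 0.13 and 1.61 ± 0.13 (edgeR adjusted p = 1.21e-10, 1.15e-08 and 7.44e-08). Gpam, which makes the first esterification of glycerol phosphate, fell by 1.94 ± 0.19 at 30 days (edgeR adjusted p = 3.84e-07) and 1.55 ± 0.19 at 60 days (5.38e-06). At 10 days Gpam was at −0.59 ± 0.18 (edgeR adjusted p = 0.0106), but at 0.069 with library totals, and the call was lost without library 1 at 0 days, at −0.41.

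The cell type markers listed for this tissue changed over the same times, and their part in the changes of the lipid genes was not tested. Of 9 muscle fibre markers, 8, 7 and 5 were called lower at 10, 30 and 60 days and 1, 1 and 2 higher, with medians of −1.86, −0.99 and −0.68. With library totals the muscle fibre medians were −1.20, −0.50 and −0.27. At 10 days Actn3 fell by 3.18 ± 0.20 (edgeR adjusted p = 2.05e-09), Acta1 by 3.01 ± 0.18 (1.21e-09), Myh1 by 2.93 ± 0.20 (3.60e-09) and Ckm by 2.74 ± 0.20 (5.98e-09). The markers called higher were Mb, by 0.50 ± 0.14, 1.01 ± 0.14 and 0.49 ± 0.14 in order of time, and Myh2, by 0.63 ± 0.23 at 60 days. Of 8 adipocyte markers, 2 were called lower at 10 and at 30 days and 6 were called higher at 60 days, with medians of −0.59, −0.53 and 1.61. With library totals the adipocyte medians were 0.073, −0.041 and 2.04. At 60 days Adipoq rose by 2.05 ± 0.42 (edgeR adjusted p = 0.000730), Cidec by 1.85 ± 0.50 (0.00502) and Cfd by 1.36 ± 0.33 (0.00266). Plin1 was at 1.37 ± 0.52 (edgeR adjusted p = 0.0335), a call lost without library 1 or 4 at 0 days or library 1, 3 or 4 at 60 days, with values from 1.10 to 1.44.

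Of 8 macrophage markers, 6 were called higher at 10 days and all 8 at 30 and 60 days, with medians of 1.63, 1.98 and 1.84. At 30 days Aif1 rose by 2.25 ± 0.25 (edgeR adjusted p = 8.24e-07), Emr1, now Adgre1, by 2.04 ± 0.27 (7.18e-06), and Mrc1 by 2.04 ± 0.19 (2.10e-07). Cd68 rose by 2.09 ± 0.38 at 10 days (edgeR adjusted p = 0.000182). Of 7 fibroblast markers, 5, 6 and 7 were called higher at the 3 times, with medians of 1.08, 1.52 and 1.48. Col1a1 rose by 2.42 ± 0.46 at 10 days (edgeR adjusted p = 0.000285), Lum by 2.02 ± 0.31 (3.87e-05) and Fbln1 by 1.98 ± 0.22 (1.52e-06) at 30 days, and Pdgfra by 1.62 ± 0.18 (1.68e-06) at 60 days. Of 8 Schwann cell markers, 5 were called lower at 10 days, 2 higher and 1 lower at 30 days and 5 higher at 60 days, with medians of −1.71, 0.27 and 1.19. Prx fell by 2.24 ± 0.20 at 10 days (edgeR adjusted p = 5.14e-08), and Mbp rose by 1.57 ± 0.28 at 60 days (0.000214). Of 6 endothelial markers, all 6 were called lower at 10 days and 3 at 30 days, and 1 was called higher and 2 lower at 60 days, with medians of −0.64, −0.37 and 0.14. With library totals the endothelial medians were 0.021, 0.13 and 0.56. At 10 days Flt1 fell by 1.44 ± 0.12 (edgeR adjusted p = 3.00e-08) and Kdr by 1.30 ± 0.18 (9.32e-06). Tie1, at −0.69 ± 0.16 (edgeR adjusted p = 0.00135), was at −0.03 with library totals, and Tek, at −0.59 ± 0.12 (0.000294), was at 0.072.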

How the data were processed

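The 16 supraspinatus libraries were made from messenger RNA with a TruSeq kit, per the labels' protocols. The authors deposited 1 table of expected counts, the raw fragments per gene from CuffDiff, per the file headers, with fractional values in 233 genes. The submitters' processing notes name bcl2fastq 1.8.4, FastQC, TopHat2 2.0.9, Bowtie2 2.1.0.0, Cufflinks, Cuffdiff 2.1.1 and the build rn5. Strandedness, the handling of fragments that match several genes, and filters are not given in the sources used here, so overlapping and near-identical genes are uncertain. Groups were taken from the time in each label.

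Values were rounded to whole counts. In edgeR 4.0.16 (R 4.3.3), filterByExpr kept 11658 of 17147 genes, 2637 of the rest having no fragment. TMM factors and 1 quasi-likelihood model of all 16 libraries with no covariate gave the F test of each of 6 pairs of groups. Adjusted p-values are Benjamini-Hochberg values over all tested genes. An SE is the size of the log2 fold change divided by the square root of F. The common coefficient of biological variation was 0.150. A library's depth limits a level to 3 counts of its total, a limit that covers counting error only.

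The 8 members and the 11 lists of 101 genes around them, 97 of which were found in the table, were chosen with earlier results of these data known. Named from each list were up to 4 genes with the largest change against 0 days among those called with a mean of at least 5 CPM, and some of these are not reported here. Alternatives were DESeq2 1.42.0, limma-voom (limma 3.58.1), RLE, upper-quartile and library-total scaling, other filters, the 2 compared groups alone, the replicate number as a block, the letter that ends each title as a covariate, and each library left out in turn. The script was tested on simulated data. Promoter windows came from RefSeq (GRCr8).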

Additional observations from a re-analysis of the deposited data

Results flagged for a closer look

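The effect against 0 days differed between 60 and 10 days for 6 of the 7 members that passed the filter, at an edgeR adjusted p under 0.05. Of these, 4 were higher and 2 lower at 60 days, where 29.1% of all tested genes were called higher and 31.9% lower. At 30 against 10 days 2 members were higher and 1 lower, beside 23.0% and 24.3% of all genes. At 60 against 30 days 0 were higher and 2 lower, beside 10.3% and 12.4%. As the members, Scd1 above all, were chosen with these differences known, nothing is read from these counts, and the values are a description. For Scd1 the effect at 60 days was below that at 30 days, by a difference of −4.67 on the log2 scale, and below that at 10 days, by −4.25. Fads3 moved in the same direction, with −0.68 from 10 to 30 days, −0.63 from 30 to 60 days and −1.32 from 10 to 60 days. The opposite direction was seen for Fads1, with 0.47 from 10 to 30 days and 0.53 from 10 to 60 days, and for Fads2, with 0.60 and 0.66. Elovl1 and Elovl5 were higher at 60 than at 10 days by 0.31 and 0.36. The differences of Fads2, Elovl1 and Elovl5 lost their calls when single libraries were left out, and with library totals so did those of Fads1, Fads2, Elovl1 and Elovl5.

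The library total of 39.9 M fragments at 30 days stood apart from the other 3 of its group. Of 40 groups of 4 values examined for such gaps, this was the single one found. Chance gives such a gap in about 1 in 20 groups, so this find is no more than chance gives.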

How the results depend on the processing

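Scd1 kept its direction in every comparison, and its side of the threshold, under all alternatives run. As Scd1 was chosen for the size of its changes in these data, this is a description only. With library totals, the members called were 7 at 10 days and 7 at 30 days against 0 days, 1 at 30 against 10 days and 2 at 60 against 10 days, where 80.2%, 75.1%, 47.6% and 63.2% of all genes were called. Leaving out single libraries gave 3 to 5 called at 60 against 0 days and 3 to 6 at 60 against 10 days. All genes called at 60 against 30 days numbered 2636, 1530 with the 2 groups alone and 1764 to 3381 without single libraries. With library totals, signs turned for Fads1 (−0.023) and Fads2 (−0.025) at 60 against 30 days and for Fads3 at 60 days (0.093). Elovl1 turned at 30 against 10 days (−0.068) and Elovl7 at 60 against 30 days (−0.0038). Elovl5 turned at 10 days (0.48), 30 days (0.42) and 30 against 10 days (−0.059). Among listed genes named with values, Fads6 (0.14), Degs1 (0.44), Ptpla (0.43), Tecr (0.59), Gpam (0.069), Adipoq (0.18) and Tek (0.072) turned at 10 days. At 30 days Degs1 (0.33), Ptpla (0.19) and Srebf1 (0.093) turned. At 60 days Degs1 (0.31), Thrsp (0.12) and Acss2 (0.082) turned. Upper-quartile factors turned Elovl5 at 30 days (0.046) and Degs1 at 60 days (0.037). Fads2 at 10 days, at 0.02, turned with RLE factors (−0.015), DESeq2 (−0.012) and the 2 groups alone (−0.0014), and Thrsp at 30 days with limma-voom (−0.029). The title letter as a covariate turned Elovl7 at 60 against 30 days (−0.039). Without single libraries the ranges that crossed 0 were −0.13 to 0.14 for Fads1, −0.16 to 0.16 for Fads2 and −0.079 to 0.19 for Elovl7 at 60 against 30 days, −0.11 to 0.26 for Fads2 at 10 days and −0.40 to 0.32 for Thrsp at 30 days. The causes were not tested.

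No pairing by library number was seen: libraries with the same number deviated from their group means with a mean r of 0.0013 over 24 pairs (−0.24 to 0.22). The pairs share libraries, so this check cannot exclude pairing. With the replicate block, calls were lost for Fads2 at 30 days (0.62) and at 30 against 10 days (0.60), for Elovl1 at 60 against 10 days (0.30) and for Plin1 at 60 days (1.39). Fads2, Elovl7 and Elovl6 rest on few fragments, and the library totals were lowest at 60 days.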
